A study of Mus musculus with 21 samples.

Results

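The immunoglobulin transcripts of mouse striatum were examined in 21 RNA sequencing libraries. They comprise the variable (V) gene segments of the heavy, kappa and lambda chains, the constant region genes and 4 proteins of B cells and antibody-secreting cells: Igj, Cd79a, Cd79b and Mzb1. The members were chosen by level: they are the table rows with these names whose normalized read counts, summed over all 21 libraries, came to at least 20. Of 234 rows that matched the names, 144 passed, out of 41128 genes in the table. They are 132 V segments (65 of 114 Ighv rows, 64 of 105 Igkv rows and 3 of 3 Iglv rows), 8 constant regions (Igkc, Iglc2, Ighm, Igha, Ighg1, Ighg2b, Ighg2c and Ighg3) and the 4 proteins. Ighd was not analysed here. The members just inside the threshold were Iglv2 with a sum of 21.4 and Igkv12-47 with 21.5, and the rows just outside it were Ighv1-42 with 19.7 and Igkv6-13 with 19.0. The sum alone chose the members, so a member's overall level is no result.

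All mice were wild type, striatal tissue was taken 3 weeks after injection of an adeno-associated virus (AAV, which carries a gene into cells and does not multiply), and the groups differ in the label of the virus. Set A has 3 libraries labelled WT, 3 labelled Cas9 and 3 labelled GCas9. Set B has 4 labelled GFP (green fluorescent protein), 4 labelled Cas9 and 4 labelled GCas9. Cas9 is the genome editing nuclease. The labels do not spell out GCas9, a name used for Cas9 joined to a piece of Geminin that makes the nuclease short-lived. They do not say whether WT mice received a virus, name no promoter, give the age as 3 weeks in 1 field and 3 months in another, and do not say that replicates are separate animals, so p-values measure the spread between these libraries. Because each set has a scaling of its own, no level was compared across sets.

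An antibody is built from heavy and light chains. In each B cell, V, D and J segments are joined into 1 heavy chain gene and V and J segments into 1 light chain gene, so a clone of B cells carries its own V segments. The heavy chain starts as the mu class, encoded by Ighm, and can switch to a gamma or alpha class (Ighg1, Ighg2b, Ighg2c, Ighg3, Igha). Plasma cells, the secreting end stage, hold very large amounts of these transcripts, and a healthy brain holds few of them outside its borders. In bulk tissue, more cells and more RNA per cell cannot be told apart.

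Depth was 20337070 to 28045057 reads on genes per library of set A, against 6091590 to 11069902 for set B. The 4 Cas9 libraries there (6091590 to 7694195 reads) were all shallower than the GFP (7894081 to 9748547) and GCas9 libraries (7809171 to 11069902). The tissue label was borne out by the 10 striatal spiny neuron markers, whose summed normalized count was 232168 to 293242 over the libraries of set A and 95026 to 121318 over those of set B. Not every defining marker of plasma cells was at a high level. Tnfrsf17, the receptor on plasma cells for a survival factor, stood at 0.95 to 11.1 normalized counts in all 21 libraries.

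The segments below led the V reads of 1 or more libraries, and are shown because the values of single V segments below turn on them. Each line gives the last 90 bases of the germline coding sequence, 5′ to 3′, from GENCODE M21 on GRCm38. Capitals mark the codon of the conserved cysteine that closes framework 3. In the expressed gene, the junction with the next segment forms at or near the end of the bases shown. The reads themselves can carry mutations that the germline sequence does not show.
Ighv1-9: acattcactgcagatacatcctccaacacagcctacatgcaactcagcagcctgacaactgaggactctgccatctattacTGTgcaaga
Ighv3-6: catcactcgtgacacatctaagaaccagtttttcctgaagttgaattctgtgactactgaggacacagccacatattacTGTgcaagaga
Ighv9-3: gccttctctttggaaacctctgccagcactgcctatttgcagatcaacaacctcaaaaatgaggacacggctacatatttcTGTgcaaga
Ighv1-58: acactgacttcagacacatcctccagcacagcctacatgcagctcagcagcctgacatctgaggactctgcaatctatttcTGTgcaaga
Igkv4-53: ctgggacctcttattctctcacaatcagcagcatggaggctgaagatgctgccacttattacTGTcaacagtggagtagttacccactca
Igkv10-96: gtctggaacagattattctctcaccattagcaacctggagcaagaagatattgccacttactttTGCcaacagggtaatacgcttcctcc
Igkv3-2: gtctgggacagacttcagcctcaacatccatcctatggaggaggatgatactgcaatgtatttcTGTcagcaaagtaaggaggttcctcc
Igkv9-120: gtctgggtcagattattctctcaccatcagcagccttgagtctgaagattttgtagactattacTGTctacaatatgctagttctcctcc
Igkv17-121: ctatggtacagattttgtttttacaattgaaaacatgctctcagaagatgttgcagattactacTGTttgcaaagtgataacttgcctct
Igkv17-127: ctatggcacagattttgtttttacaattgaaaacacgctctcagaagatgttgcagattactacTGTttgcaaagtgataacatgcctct
Iglv1: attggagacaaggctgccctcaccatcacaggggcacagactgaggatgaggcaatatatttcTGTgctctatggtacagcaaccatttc

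Ighv1-9 (chr12:114583569-114584002, minus strand), Ighv3-6 (chr12:114288152-114288582, minus strand), Ighv9-3 (chr12:114140692-114141122, minus strand) and Ighv1-58 (chr12:115312166-115312599, minus strand) are heavy chain segments. Igkv4-53 (chr6:69648824-69649363, minus strand), Igkv10-96 (chr6:68631963-68632442, minus strand), Igkv3-2 (chr6:70698449-70699067, plus strand), Igkv9-120 (chr6:68049983-68050456, plus strand), Igkv17-121 (chr6:68036812-68037318, plus strand) and Igkv17-127 (chr6:67861153-67861659, plus strand) are kappa segments, and Iglv1 (chr16:19085017-19085500, minus strand) is a lambda segment. All 144 members were found in that annotation, 71 of them between bases 113254830 and 116000461 of chromosome 12, 65 between 67555497 and 70726966 of chromosome 6 and 4 between 19085017 and 19260859 of chromosome 16. The annotation calls 4 of the 132 V segments pseudogenes. Of the 128 V segments whose reading frame could be followed to the cysteine, 98 had tyrosine, tyrosine, cysteine there, and the pairs printed above include Igkv17-121 and Igkv17-127, whose coding sequences were 97.5% identical. The median V segment shared 24.8% of its 50-base windows with another gene, and 19 of 132 shared over 50%, so counts of single V segments are uncertain between close relatives.

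The summed level of the 144 members was lower in every WT library than in the other libraries of set A. The WT libraries of set A held 563, 720 and 808 normalized counts, the Cas9 libraries 26609, 1898 and 32503, and the GCas9 libraries 4809, 4606 and 77156. All 6 Cas9 and GCas9 libraries lay above all WT libraries, by a ratio of group means of 29.2 for Cas9 and 41.4 for GCas9. The second ratio rests on GCas9 replicate 3, without which it was 6.76. The Cas9 and GCas9 libraries of set A overlapped, and their ratio of means, 1.42 for GCas9 over Cas9, was 0.231 without the same library, 0.976 without Cas9 replicate 2 and 2.02 without Cas9 replicate 3.

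Set B has no WT library, and its totals were set against each other only. The GFP libraries of set B held 31399, 16911, 16383 and 3933 normalized counts, the Cas9 libraries 13845, 23583, 7831 and 6514, and the GCas9 libraries 3999, 45365, 2881 and 1326. All 3 groups overlapped. The ratio of means was 0.754 for Cas9 over GFP and 0.781 for GCas9 over GFP, and the second was 0.159 without GCas9 replicate 2, a library that held more than all other libraries of its set. For GCas9 over Cas9 the ratio was 1.03, and 0.211 without that library. Within a group the highest total was 1.43 times the lowest in WT, 17.1 and 16.7 times in Cas9 and GCas9 of set A, and 7.98, 3.62 and 34.2 times in GFP, Cas9 and GCas9 of set B.

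Igkc, the only kappa constant region (chr6:70726435-70726966, plus strand), held more reads in every library than Iglc2, the only lambda constant row of the table. Its level was 55.8, 80.2 and 82.1 normalized counts in WT, 5170, 322 and 6976 in Cas9 and 916, 998 and 16701 in GCas9 of set A. No Cas9 or GCas9 library came down to the WT range, although Cas9 replicate 2 was far below its group. In set B Igkc stood at 6334, 5133, 4804 and 951 with GFP, at 3288, 6843, 2481 and 2013 with Cas9, and at 1269, 13795, 870 and 341 with GCas9. Iglc2, a lambda constant region, held 0, 1.72 and 0.99 normalized counts in WT, against 12.5 to 308 in the other libraries of set A and 4.61 to 258 in set B. Its share of the Igkc and Iglc2 reads was at most 7.69%, in GFP replicate 4 (Clopper-Pearson 95% interval 6.20 to 9.39%, counting error only). With no other lambda constant row counted, this is not the share of all lambda transcripts. In GFP replicate 1, the library with the most Iglv reads, Iglv segments held 1475 reads and Igkv segments 2751, where Iglc2 took 3.91%. In GFP replicate 2 they held 45 and 2489.

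Ighm, the mu heavy chain, was the one class with a clear level in WT, at 390, 433 and 480 normalized counts. It stood at 8580, 640 and 7558 in Cas9 and at 1313, 662 and 24082 in GCas9 of set A, all above WT. In set B it held 6890, 2587, 1786 and 638 with GFP, 2751, 2496, 1264 and 1074 with Cas9, and 681, 3715, 591 and 341 with GCas9. Scaled to exon length, Igkc was below Ighm in 3 of 3 WT libraries, at 0.508 to 0.657 of its level per kilobase, and above it in 18 of 18 others, at 1.79 to 5.34 times in set A and 3.26 to 13.2 times in set B. The switched classes were near the floor in WT. Ighg2c held 11.5, 48.3 and 19.8 normalized counts there, Ighg2b 7.70, 12.1 and 24.7, Igha 0, 17.2 and 25.7, and Ighg3 2.89, 4.31 and 2.97, the last from 11 reads in all.

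Outside WT the switched classes spread over wide ranges. Ighg2c, a gamma class of antiviral antibodies, held 2040, 114 and 2705 normalized counts in Cas9 and 235, 750 and 4112 in GCas9 of set A. In set B it held 6199, 3477, 3128 and 569 with GFP, 1533, 2840, 734 and 564 with Cas9, and 732, 2375, 151 and 99.6 with GCas9. The groups of set B overlapped, with 3 of 4 GFP libraries above all Cas9 and GCas9 libraries. Igha, the class of mucosal antibodies, held 1205, 43.4 and 3197 in Cas9 and 228, 158 and 3107 in GCas9 of set A, and 29.2 to 2264 over the 12 libraries of set B. Ighg3 held 968, 182 and 1335 in Cas9 of set A and 17.3, 172 and 273 in GCas9, where the lowest Cas9 library lay below the highest GCas9 library. Ighg1 reached 10375 in GCas9 replicate 2 of set B, against 14.3 to 285 in the other 3 GCas9 libraries and 12.8 to 671 with GFP and Cas9.

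**Figure D1:**
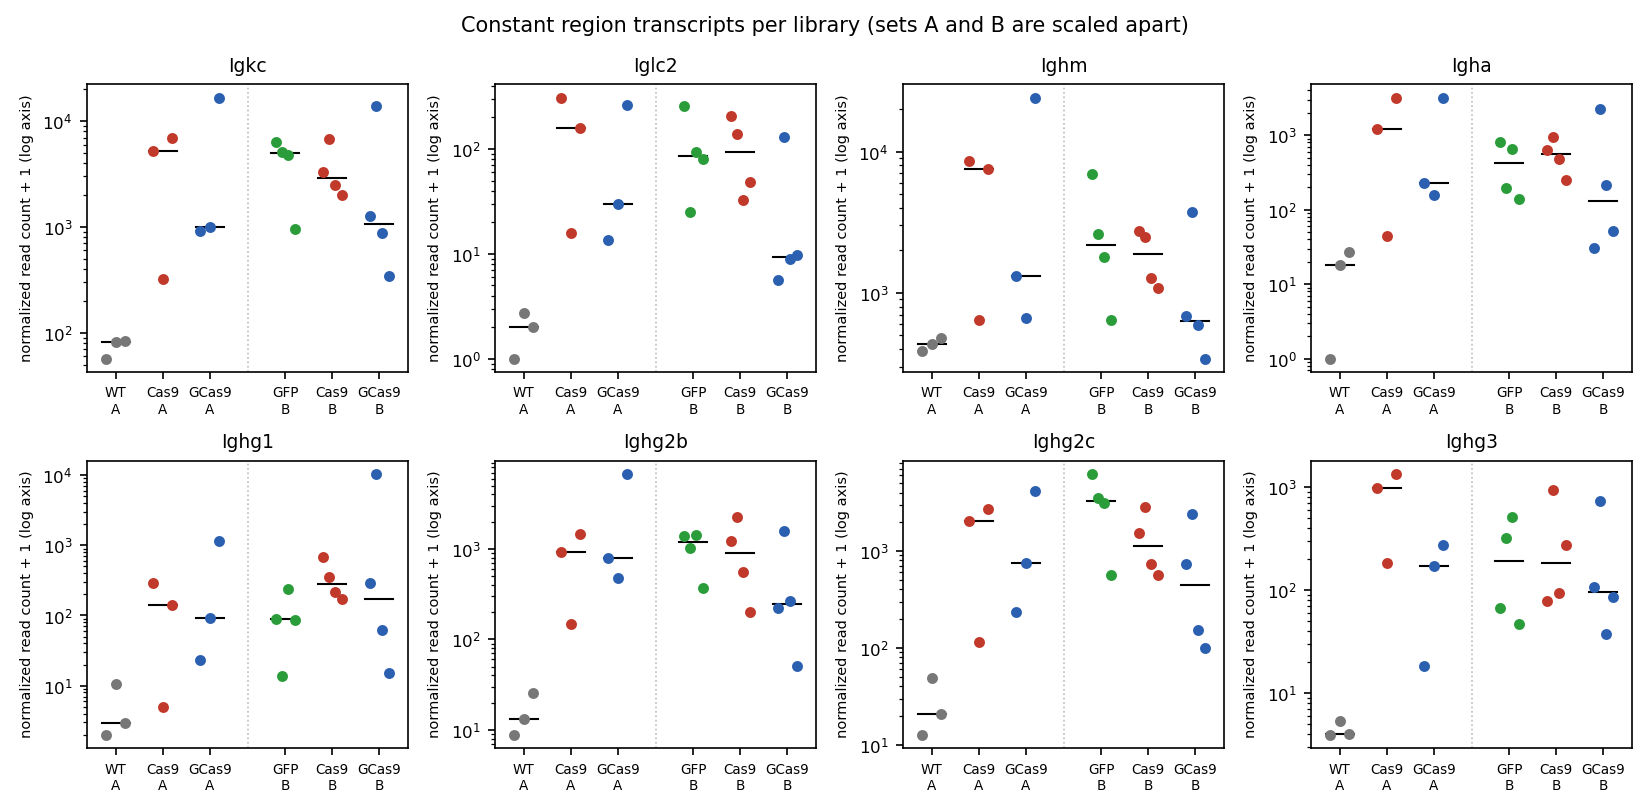
Normalized read count plus 1 of the 8 constant region genes (log axis) in each library, by group, with a line at each group's median; sets A and B are scaled apart and divided by a dotted line. In set A the WT libraries are lowest for every gene shown except Ighg1, where 1 Cas9 library lies among them, and GCas9 replicate 2 of set B stands far above its group for Igkc and Ighg1.

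The classes were also set against each other within a library, which needs no scaling between libraries. Ighm took 82.6 to 94.4% of heavy chain constant reads in WT, 46.1 to 61.2% in Cas9 and 28.6 to 61.0% in GCas9 of set A, with no overlap against WT. Ighg2b took 1.86 to 4.46% in WT, 6.63 to 13.1% in Cas9 and 17.1 to 30.3% in GCas9, with no overlap between any pair of the 3 groups. In set B, Ighg2c took 30.8 to 45.7% with GFP and 22.0 to 29.0% with Cas9, and Igha took 2.55 to 8.36% with GFP and 9.12 to 14.3% with Cas9, both without overlap. The GCas9 libraries of set B overlapped both other groups in all 6 classes. Of the 6 classes, 4 did not overlap between Cas9 and WT, 3 between GCas9 and WT, 1 between GCas9 and Cas9 of set A and 2 between Cas9 and GFP. These shares were given no test, and those named here were chosen after their values were seen. The classes of a library add up to 100%, so they do not move separately. In GCas9 replicate 2 of set B, Ighg1 alone took 49.3% (Clopper-Pearson 95% lower bound 48.6%, counting error only) of 19542 heavy chain constant reads, where the other 3 GCas9 libraries had 2.24 to 13.9%.

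**Figure D2:**
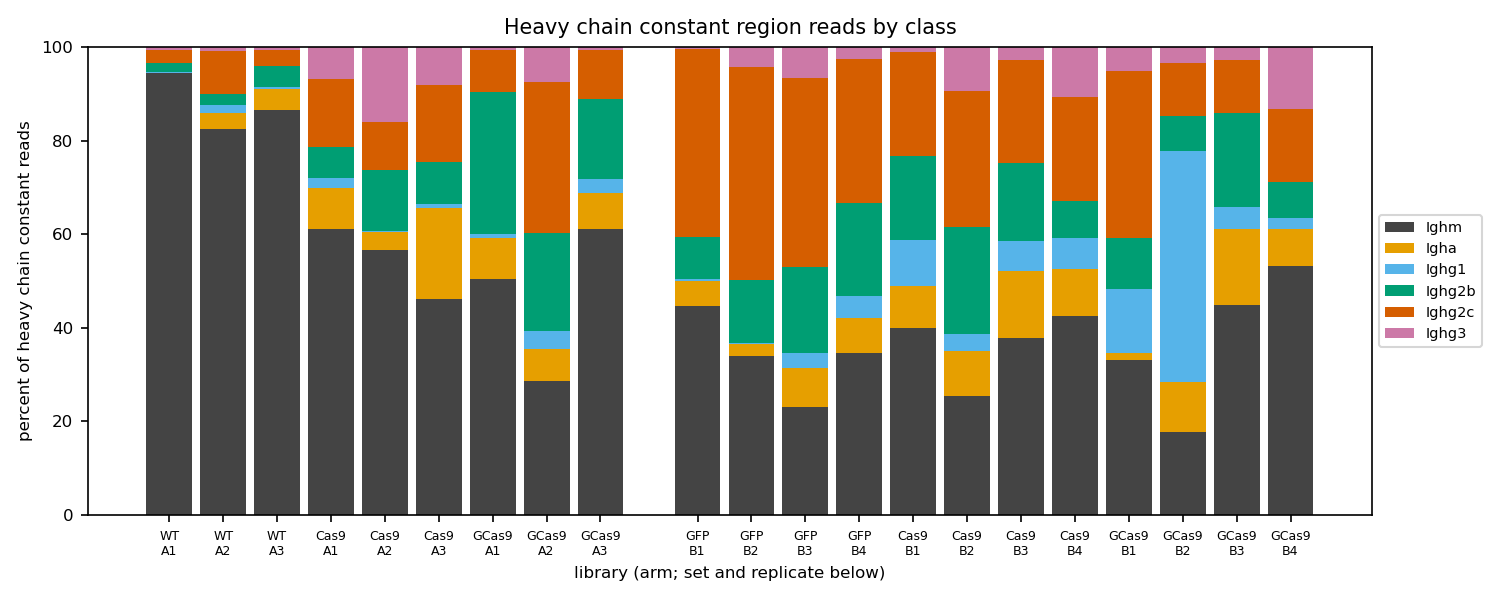
Percent of heavy chain constant region reads taken by each of 6 classes (stacked bars) in each of the 21 libraries, named by arm, set and replicate. Ighm takes 82.6% or more in the 3 WT libraries and 61.2% or less in the others, and Ighg1 takes 49.3% in GCas9 replicate 2 of set B.

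In set A the main limma fit and edgeR called no member, and DESeq2 called some against WT. Limma on log2(normalized count + 1), with Benjamini-Hochberg adjustment over 15924 genes, called 0 of 70 members tested between Cas9 and WT, where 0.00628% of all genes were called. At an unadjusted p under 0.05 there were 25 of 70 members, all higher in Cas9, against 11.8% of all genes in either direction and 6.17% higher. The log2 fold change was above 0 in 69 of 70, with a median of 3.24 against -0.0031 over all genes, and 27 of 70 members had all Cas9 libraries above all WT libraries, against 10.7% of all genes. Since a member entered through the libraries in which it is high, these counts describe the members and test nothing. The largest change was that of Ighg3, at 7.16 ± 1.02 (log2 fold change ± SE) with limma adjusted p = 0.205. Igkc differed by 4.96 ± 1.33, Ighm by 3.00 ± 1.34, Ighg2b by 5.36 ± 1.08 and Ighg2c by 5.20 ± 1.32, none past the threshold. EdgeR's quasi-likelihood test called 0 of 70 and DESeq2 13, where DESeq2 called 0.728% of all genes. Ighg3 was among the 13, with DESeq2 adjusted p = 3.24e-09. Limma on the Cas9 and WT libraries alone called 2 members, Ighg3 and Igkv10-96, both with limma adjusted p = 0.0446.

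The comparison of GCas9 with WT shares its WT libraries with the one above. Limma called 0 of 70 members, where 0.00628% of all genes were called, and 25 had an unadjusted p under 0.05, all higher in GCas9, against 6.77% of all genes in either direction and 4.44% higher. The median log2 fold change was 2.93, against -0.00029 over all genes, and 27 of 70 members did not overlap and were higher, against 9.16% of all genes. Ighg2b had the smallest p among the members, with a difference of 6.58 ± 1.08 and limma adjusted p = 0.383, and Ighg3 differed by 4.45 ± 1.02 (limma adjusted p = 0.630). EdgeR called 0 members and DESeq2 20, where DESeq2 called 1.37% of all genes. GCas9 minus Cas9 in set A gave limma calls for 0 of 70 members and 0% of all genes. There 32 members were higher and 38 lower, the median was -0.16 against 0.012 over all genes, and 2 members had an unadjusted p under 0.05 against 5.45% of all genes, with 0 calls by edgeR and DESeq2. One of the 2 was Ighg3, lower in GCas9 by 2.70 on the log2 scale (SE 1.02, limma adjusted p = 0.890).

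In set B no member was called in any comparison by limma, edgeR or DESeq2, and limma called 0% of all 15428 genes in each. Cas9 minus GFP had 0 of 67 members with an unadjusted p under 0.05, against 6.24% of all genes, and a median log2 fold change of 0.14 against -0.0053. Igkc differed by -0.10 ± 0.89, Ighm by -0.28 ± 0.72, Ighg2c by -1.10 ± 0.92 and Ighg1 by 2.10 ± 1.48, all within a spread between libraries that limma did not separate from 0. GCas9 minus GFP had 51 of 67 members lower, a median of -1.20 against -0.0032, and 9 with an unadjusted p under 0.05, all lower, against 6.48% of all genes in either direction and 2.76% lower. Ighg2c was lower by 2.62 ± 0.92 (limma adjusted p = 0.728) and Iglc2 by 2.39 ± 0.92 (adjusted p = 0.739). Against Cas9, GCas9 had 57 of 67 lower, a median of -1.41 against 0.0018, and 8 with an unadjusted p under 0.05, all lower, against 3.84% of all genes in either direction and 1.57% lower. Both medians come from the same 4 GCas9 libraries. On this log scale replicate 2 of GCas9 is 1 of 4 values, while it holds most of the group's mean total. DESeq2 gave no adjusted p to 20 of 70 members in each comparison with WT and 60 of 70 in GCas9 minus Cas9 of set A. In set B it gave none to 59 of 67 members in Cas9 minus GFP and 15 of 67 in both other comparisons, Igkc and Ighg1 among them.

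**Figure D3:**
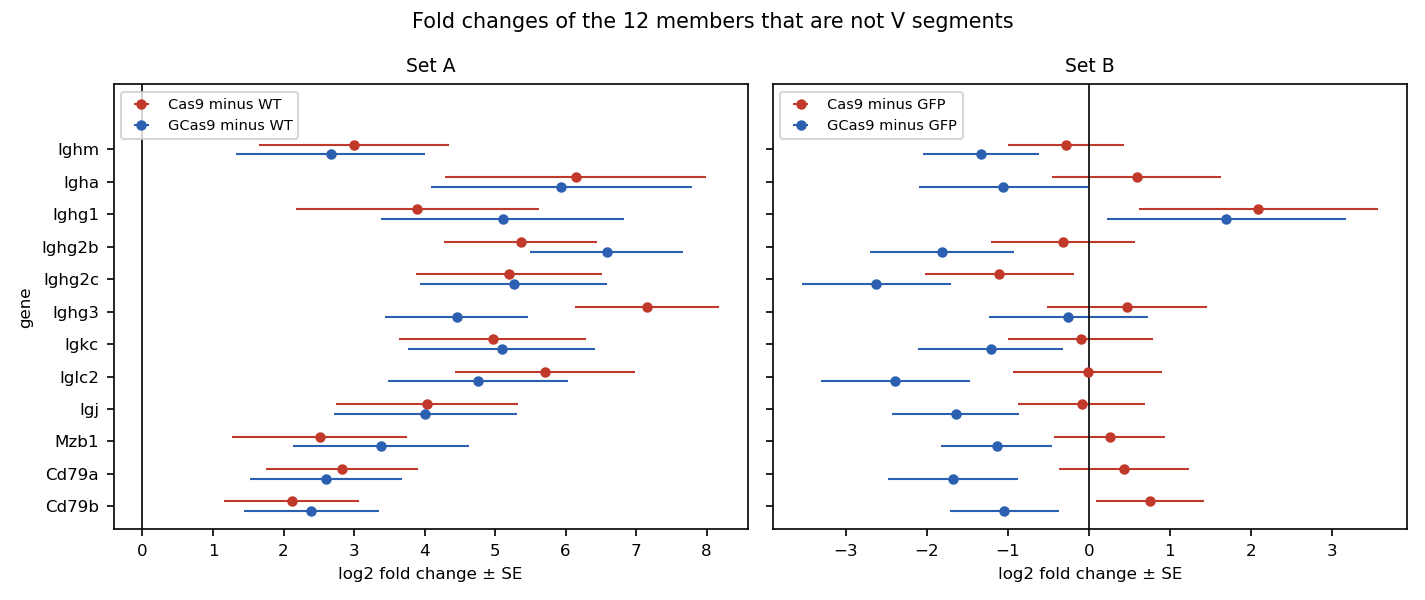
Log2 fold change with its standard error for the 12 members that are not V segments, in set A against WT (left) and in set B against GFP (right), from the limma fit. All 12 lie above 0 against WT, by 2.11 to 7.16 on the log2 scale, and 11 of 12 GCas9 values lie below 0 against GFP, with Ighg1 the exception (by edgeR and DESeq2, Igha and Ighg3 lie above 0 as well).

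The difference between GCas9 and Cas9 was compared between the sets in a fit over all 21 libraries. Limma called 0 of 71 members and 0% of 16094 genes, and 2 members had an unadjusted p under 0.05, against 4.34% of all genes. Ighg2b differed most between the sets among the constant regions, by 2.72 ± 1.52 (set A minus set B, limma adjusted p = 0.992).

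The number of V segments seen differed widely between libraries. A V segment had at least 1 read for 26, 31 and 28 of 132 members in WT, for 105, 50 and 107 in Cas9 and for 65, 52 and 102 in GCas9 of set A. In set B these numbers were 95, 72, 93 and 74 with GFP, 81, 102, 74 and 74 with Cas9, and 48, 104, 65 and 51 with GCas9. The number of segments seen depends on the number of reads, so it is not separate from the totals. The 3 WT libraries held 241 V reads in all, 74 of 132 segments had none there, and 113 had at most 3.

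No segment led in every library. Over the 21 libraries, 8 Ighv segments and 13 Igkv segments led at least once, and in set B the 12 libraries had 11 different leading Igkv segments. Ighv1-9 led 7 libraries and Ighv3-6 led 6, with a tie between Ighv3-6 and Ighv9-3 at 41 reads each in Cas9 replicate 4 of set B. In GFP replicate 2, Ighv1-9 took 58.8% of 1414 Ighv reads (Clopper-Pearson 95% interval 56.2 to 61.4%), and in GFP replicate 1 it took 45.9% (44.0 to 47.7%). In GCas9 replicate 2 of set B, Ighv9-3 took 44.8% of 3056 Ighv reads (43.0 to 46.5%) and Igkv3-2 took 31.6% of 4814 Igkv reads (30.3 to 33.0%).

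The level of a leading segment varied between libraries of the same set. Ighv1-9 held 1410, 711, 275 and 23.7 normalized counts with GFP, 22.1 to 360.0 with Cas9 and 10.7 to 160.5 with GCas9 of set B. Ighv9-3 held 1473 normalized counts in GCas9 replicate 2 of set B, 79.8 in replicate 1 and 11.9 to 13.6 in the other 2, against 1.13 to 99.2 with GFP and Cas9. In set A its highest levels were 281 and 280.2 normalized counts, in Cas9 replicates 1 and 3. Igkv3-2 held 1639 in GCas9 replicate 2 of set B and 0 to 196 in the other 11 libraries of that set. Igkv9-120 held 1152 in GFP replicate 1, where it took 39.8% of Igkv reads (38.0 to 41.7%), 197 in GFP replicate 3, and 0 and 0.91 in the other 2 GFP libraries, against 8.60 to 139 with Cas9 and 0 to 49.5 with GCas9. Ighv1-58 held 630 in GFP replicate 1 and 158 in Cas9 replicate 1, and 0 to 40.9 in the other 10 libraries of set B. Igkv8-28 held 679 in GFP replicate 2 and at most 86.2 elsewhere in set B. Iglv1 held 1437 in GFP replicate 1 and 1.59 to 303 in the other 11.

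In set A some libraries shared a leading segment. Ighv3-6 led the Ighv reads of Cas9 replicate 1 and GCas9 replicates 2 and 3, and Igkv4-53 led the Igkv reads of Cas9 replicate 3 and GCas9 replicate 1. Both also led a WT library on few reads. Ighv3-6 had 9 of 25 Ighv reads in WT replicate 2, and Igkv4-53 had 15 of 60 Igkv reads in WT replicate 3. Ighv3-6 held 626, 5.92 and 199 in Cas9 and 26.8, 106 and 1614 in GCas9, against 2.89, 7.76 and 0.99 in WT. Igkv10-96 held 2055 in GCas9 replicate 3, 147, 59.2 and 302 in Cas9, and 0 in GCas9 replicate 1. Igkv4-53 held 871 in Cas9 replicate 3 and 270 in GCas9 replicate 1, where it took 43.9% of 643 Igkv reads (40.0 to 47.8%). Igkv17-121 and Igkv17-127, the near-identical pair printed above, did not rank alike: the first held 403 and the second 48.9 in Cas9 replicate 1, and 1.08 and 185 in GCas9 replicate 2.

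A single library often held much of a V segment's signal. Of 100 V members with a sum of at least 20 over the 6 Cas9 and GCas9 libraries of set A, the library with the most took a median of 68.9% of that sum, against 19.0% for all 15924 genes tested and 51.6% for the 12 other members. Over the 12 libraries of set B it was 49.4% for 105 V members, 26.4% for the 12 others and 10.3% for all genes tested. The V members were highest in GCas9 replicate 3 (40 of 100), Cas9 replicate 3 (28) and Cas9 replicate 1 (27) of set A, and in GCas9 replicate 2 (33 of 105), Cas9 replicate 2 (26) and GFP replicate 1 (18) of set B. These shares have no test, and V members have fewer reads than the other genes. A V member passed on its sum over these same libraries, so it could enter through 1 library in which it was high. The genes tested also had to have a mean of at least 10 in the set. The filters thus differ, and the gap between V members and all genes is in part set by them.

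**Figure D4:**
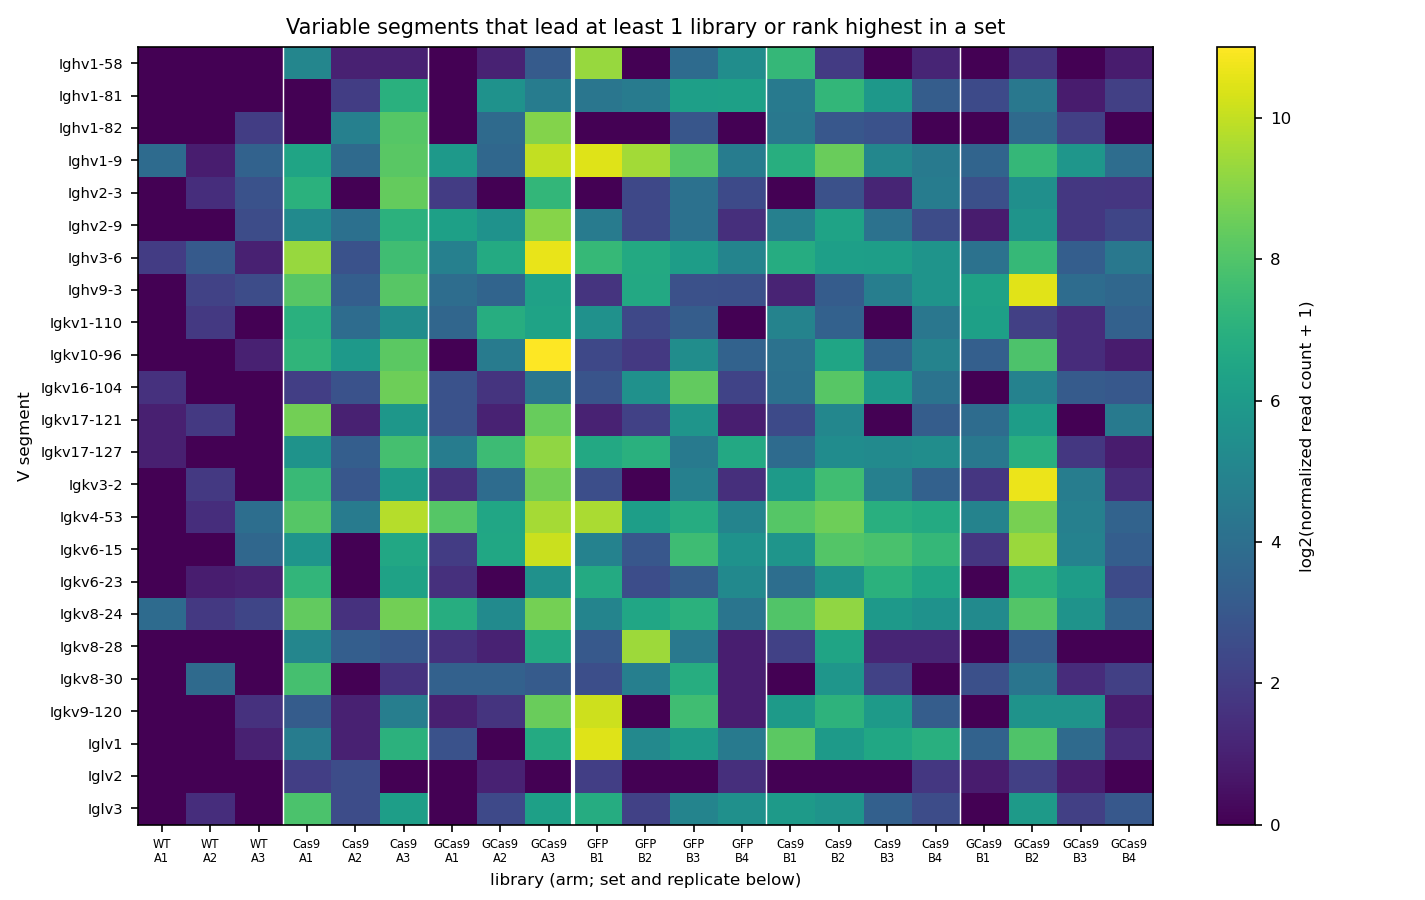
Log2(normalized read count + 1) of 24 V segments (rows) in 21 libraries (columns, by arm, set and replicate; the thick line divides the sets). The segments are those that lead an Ighv, Igkv or Iglv family in a library or are among the 3 highest of a family in a set, and the bright cells fall in different rows for different libraries, such as Ighv9-3 and Igkv3-2 in GCas9 B2.

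In the main limma fits, which did not use the replicate numbers, no V segment was called in any of the 6 comparisons. The smallest p-values against WT there belonged to Igkv1-110 for Cas9 (4.81 ± 1.02, limma adjusted p = 0.405) and to Ighv2-9 for GCas9 (6.09 ± 1.10, limma adjusted p = 0.495). With the replicate number as a block, limma called Ighv2-9 against WT for Cas9 (limma adjusted p = 0.0156) and for GCas9 (limma adjusted p = 0.00228). Ighv1-81 had the smallest p among V segments for GCas9 in set B, with -2.88 ± 0.85 against GFP (limma adjusted p = 0.672) and -2.78 ± 0.85 against Cas9 (limma adjusted p = 0.995). It held 18.9, 23.1, 72.4 and 75.5 normalized counts with GFP, 21.5, 157, 57.8 and 8.60 with Cas9, and 4.61, 20.5, 0.80 and 3.19 with GCas9. Of the 67 members tested between GCas9 and Cas9 in set B, 2 had all GCas9 libraries below all Cas9 libraries, Igkv3-7 and Ighv8-8, against 0.797% of all genes. Igkv3-7 held 27.1, 44.5, 3.54 and 7.37 normalized counts with Cas9 and 0, 3.23, 0 and 0 with GCas9. Ighv8-8 held 10.2, 38.9, 8.26 and 1.23 with Cas9 and 0, 1.08, 0.80 and 0 with GCas9. In reads the groups were tied. Igkv3-7 had 3 reads in Cas9 replicate 3 and 3 in GCas9 replicate 2. Ighv8-8 had 1 read in Cas9 replicate 4 and 1 in GCas9 replicate 2. Only the scaling of the libraries set the groups apart.

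The 4 other proteins, like the constant regions, were higher in every group of set A that was labelled Cas9 or GCas9 than in WT by group mean, without a limma call. Igj, the J chain that joins mu or alpha antibodies into polymers, held 22.1, 39.7 and 50.4 normalized counts in WT, 1247, 98.6 and 1701 in Cas9 and 250, 202 and 3987 in GCas9 of set A. In set B it held 1735, 695, 816 and 217 with GFP, 757, 1279, 408 and 422 with Cas9, and 128, 1456, 148 and 78.9 with GCas9. All Cas9 and GCas9 libraries of set A lay above WT, by 4.03 ± 1.29 for Cas9 and 4.01 ± 1.29 for GCas9 on the log2 scale (limma adjusted p = 0.405 and 0.724), and the groups of set B overlapped. Cd79a and Cd79b, the signalling chains of the B cell receptor, were far lower. Cd79a held 2.89, 4.31 and 5.93 in WT, 52.0, 9.86 and 88.0 in Cas9 and 9.59, 16.2 and 175 in GCas9. In set B it held 48.4, 23.1, 27.6 and 7.28 with GFP, 40.7, 57.0, 8.26 and 41.7 with Cas9, and 7.68, 34.5, 2.41 and 1.59 with GCas9. There GCas9 replicate 2, the library with the highest total, was below 4 other libraries in Cd79a. Mzb1, a chaperone of antibody assembly, held 2.59 to 5.77 in WT, 4.93 to 342 in the other libraries of set A and 3.19 to 71.1 in set B, and its count is uncertain because 75.7% of its 50-base windows also lie in an overlapping gene.

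Genes of B cells outside the rule were tested as a list. Of 18 genes on a B cell list, limma called 0 of 14 tested in set A, with 13 higher in Cas9 and 14 in GCas9 than WT and medians of 2.00 and 2.11, and 0 of 10 tested in set B. The list's summed count was 1684 to 1775 in WT and 1803 to 3848 in the others of set A, and it is carried by Ralgps2, which held 1182 to 1420 in every library of that set. Pax5, the B cell identity factor, held at most 10.2 in set A and 1.23 or less in set B. Of 20 plasma cell and antibody secretion genes, limma called 0 of 19 tested in set A and 0 of 18 in set B, with medians of 0.41 and 0.30 against WT. In that list Pou2af1 and Irf4 are regulators of B cells and plasma cells. They held 2.89 to 4.94 and 1.98 to 5.77 in WT and 338 and 271 in GCas9 replicate 3 of set A. Pou2af1 had 3, 4 and 5 reads in WT, 58, 12 and 126 in Cas9 and 32, 17 and 299 in GCas9. Irf4 had 6, 6 and 2 reads in WT, 55, 11 and 102 in Cas9 and 21, 14 and 240 in GCas9. For Sdc1 the reads were 15, 18 and 40 in WT, 64, 18 and 53 in Cas9 and 19, 25 and 82 in GCas9. For Prdm1 they were 20, 26 and 14, then 42, 23 and 37, then 25, 25 and 93. Xbp1, the secretory regulator, held 1512 to 1908 normalized counts in WT and 1627 to 2144 in the others of set A. The list's summed count was 17914 to 21169 in WT and 19467 to 27378 in the others of set A, and 10199 to 12121 over set B.

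Genes that draw or help B cells were tested too. Limma called 0 of 14 of these tested in set A and 0 of 9 in set B, with medians of 1.71 for Cas9 and 1.73 for GCas9 over WT and of -0.03 and -0.95 over GFP. Cxcl13, the chemokine that guides B cells, held 2.89, 8.62 and 12.9 in WT, 261, 29.6 and 312 in Cas9 and 30.7, 55.1 and 2041 in GCas9. In set B it held 436, 329, 613 and 16.4 with GFP, 167, 507, 558 and 28.2 with Cas9, and 72.2, 200.3, 99.5 and 5.58 with GCas9. Of 8 receptors for antibodies, limma called 0 of 7 tested in each comparison, with medians of 1.11 and 1.35 over WT. Of 8 recombination and class switch genes, 2 were tested in set A and 3 in set B with 0 calls.

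Markers of other cells and of inflammation were high in some of the same libraries. The summed count of 17 T cell genes was 3477 to 4030 in WT and 3557 to 5266 in the others of set A, and it is carried by Cd4, at 3032 to 3899 in every library of that set. Cd3e, a T cell receptor chain, held 5.77, 1.72 and 2.97 normalized counts in WT, 28.1, 3.94 and 37.4 in Cas9 and 2.88, 6.48 and 126 in GCas9. The 10 interferon-stimulated genes summed to 332 to 380 in WT, 603 to 3333 in Cas9 and 602 to 33758 in GCas9 of set A, highest in GCas9 replicate 3, the library with the highest immunoglobulin total. In set B they summed to 915 to 8286 with GFP, 1197 to 13934 with Cas9 and 434 to 5865 with GCas9. The 7 class II genes summed to 629 to 774 in WT and 1566 to 23000 in the others of set A, and to 1079 to 10190 in set B. The 11 choroid plexus genes summed to 811 to 1087 in WT, 703 to 299683 in Cas9 and 1284 to 11832 in GCas9. Ttr, the choroid plexus transport protein, held 280177 in Cas9 replicate 1 and 1817 in Cas9 replicate 3, whose immunoglobulin totals were 26609 and 32503. Meningeal and fibroblast genes summed to 1261 to 1515 in WT and 1306 to 12558 in the others, highest in Cas9 replicate 1. Red cell genes summed to 2184 to 3449 in WT and 1183 to 4596 in the others, and granulocyte and monocyte genes to 13.5 to 19.8 in WT and 20.7 to 1518 in the others. Over all 13 lists, limma and edgeR called 0 genes in each of the 6 comparisons, of 129 tested in set A and 108 in set B. DESeq2 called 9 for Cas9 and 28 for GCas9 against WT and 0 in the other 4, where it called 0.728% and 1.37% of all genes against WT. At an unadjusted limma p under 0.05 there were 29 and 37 genes against WT, all higher, where 6.17% and 4.44% of all genes were higher at that p. The part of other cells in the immunoglobulin totals was not tested.

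**Figure D5:**
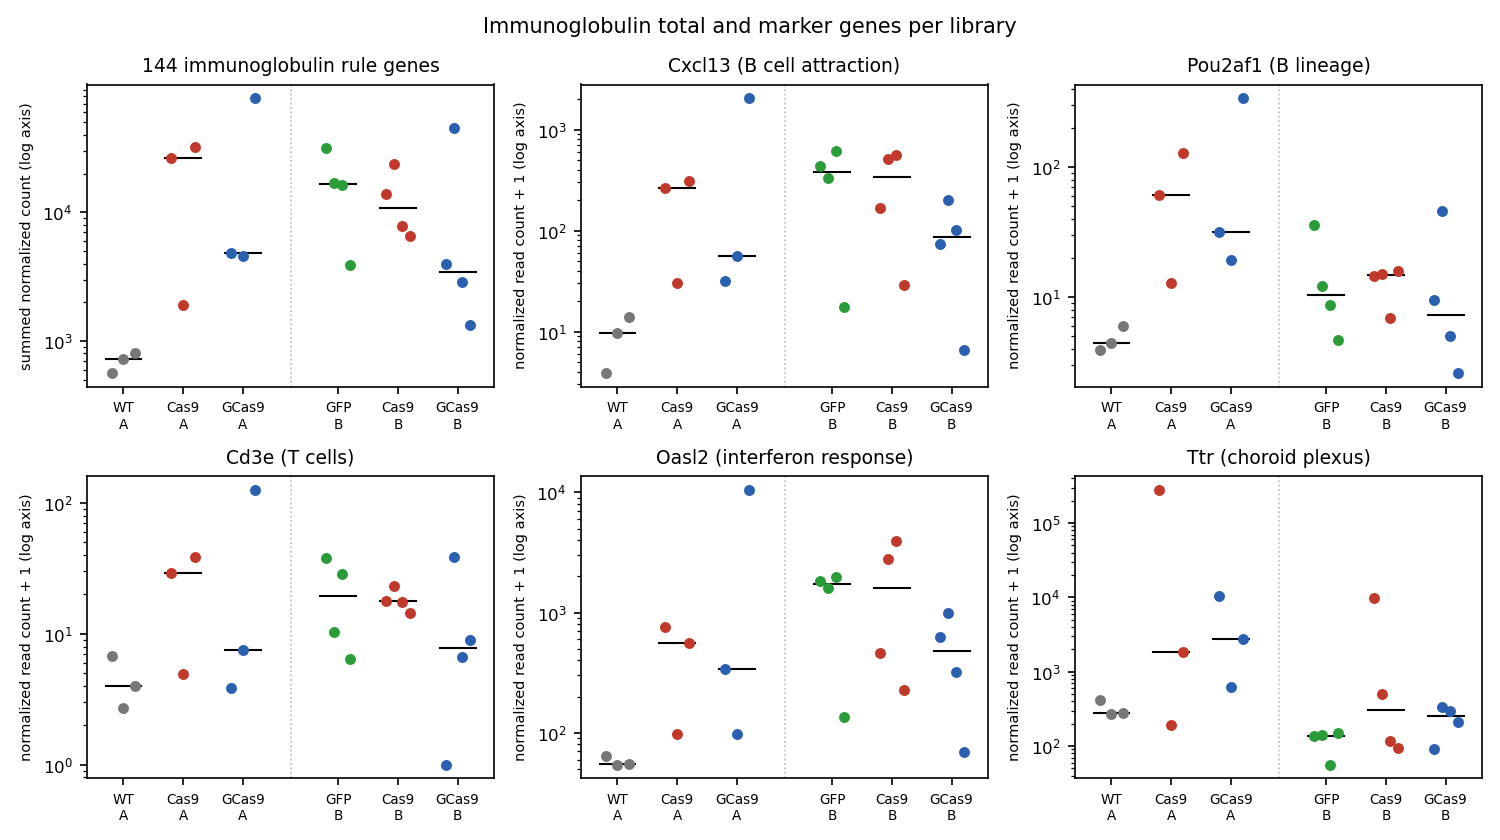
Summed normalized count of the 144 members and normalized read count plus 1 of Cxcl13, Pou2af1, Cd3e, Oasl2 and Ttr (log axes) per library, by group, with a line at the median. GCas9 A3 is highest of set A in all panels but Ttr, where Cas9 A1 stands at 280177.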

How the data were processed

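RNA of striatal tissue was measured in 21 libraries. Per the labels, RNA was column purified, cDNA was made with SMARTer kits and libraries with Nextera XT, which amplifies cDNA, so intervals cover counting error only. Tools listed in the submitters' processing notes are HTSeq, STAR 2.5.2b, SAMtools, R 3.3.3 and DESeq2, with build GRCm38.p3 and neither roles nor parameters. For each gene symbol the authors deposited a signal, the read count over a size factor of the library, as the values show: 100% of them were whole multiples of 1 step per library within 0.001 reads. Recovered reads, by library totals, ran from 20337070 to 28045057 (set A) and from 6091590 to 11069902 (set B). The sets were told apart by the titles' numbering and their scaling.

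Log2(normalized count + 1) was fitted with limma 3.58.1 in R 4.3.3 (mean trend, two-sided, 3 groups per set) for genes with a mean of at least 10. P-values were adjusted by Benjamini and Hochberg over all genes tested, with a threshold of 0.05. On simulated counts with 100 genes changed per fold size, the set A procedure (15799 genes, Cas9 against WT) recovered 62% of 2-fold and 86% of 4-fold changes, and the set B procedure (15318 genes, Cas9 against GFP) 70% and 92%. The changed genes were drawn from all genes, so these rates do not hold for the members. Among members that are not V segments, the SE for Cas9 against WT was 0.96 (Cd79b) to 1.84 (Igha) on the log2 scale. EdgeR 4.0.16 and DESeq2 1.42.0 on recovered reads, other pseudocounts and filters, 2 groups only, a replicate block and each library left out were alternatives. Totals and shares were described without a test, and single-library shares have Clopper-Pearson 95% intervals. Positions and sequences are from GENCODE M21 by gene symbol (1 of 144 through a newer symbol), and a V segment's shared windows are those of 50 bases found in another gene's transcripts.

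The members and the 13 lists were chosen with earlier results of these data known. Named are all members that are not V segments, the 3 highest V segments of each family in each set, the V segment leading each library, the members nearest the sum of 20, and of each list genes past the threshold or, otherwise, up to 4 of the highest level. List genes below that level (Pax5, Tnfrsf17, Pou2af1, Irf4, Sdc1, Prdm1, Cd3e, Cxcl13) and the V segments of smallest p were added after their values were seen.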

Additional observations from a re-analysis of the deposited data

Results flagged for a closer look

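In groups of 4 libraries, a library was set apart where its gap to the nearest other, divided by the group's range, passed Dixon's 95% critical value of 0.829. Of 111 groups of 4 tested in set B, 38 passed, and 23 of the 38 were GCas9 replicate 2. Chance flags about 1 in 20 groups where values are normal and independent. These are skewed counts, many members were high together in 1 library, and the V segments were chosen for leading a library or a family, so the number of flags was not set against that rate. Groups of 3 in set A were not tested this way.

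GCas9 replicate 2 of set B stood above its group in the summed level of all members, at 45365 normalized counts. It did so for 9 members that are not V segments, at these normalized counts: Igkc 13795, Ighm 3715, Ighg2b 1584, Igj 1456, Igha 2264, Ighg1 10375, Ighg3 732, Iglc2 128 and Mzb1 71.1. It did so for 13 V segments, at normalized counts of Ighv2-3 44.2, Ighv2-9 50.6, Ighv3-6 165, Ighv9-3 1473, Igkv10-96 243, Igkv17-127 122, Igkv3-2 1639, Igkv4-53 429, Igkv6-15 646, Igkv8-24 267, Igkv8-28 8.62, Iglv1 251 and Iglv3 63.5.

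GFP replicate 1 of set B was set above its group in normalized counts of Ighv1-58 630.4, Igkv4-53 775 and Iglv1 1437. GFP replicate 2 of set B was set above its group in normalized counts of Ighv9-3 99.2 and Igkv8-28 679. GFP replicate 3 of set B was set above its group in normalized counts of Ighv1-82 6.67, Igkv16-104 329.8 and Igkv17-121 52.4. Cas9 replicate 1 of set B was set above its group in normalized counts of Ighv1-58 158. It was set below its group in Igkv17-127, at 13.6 normalized counts. Cas9 replicate 2 of set B was set above its group in normalized counts of Igkv16-104 281, Igkv8-28 86.2 and Igkv8-30 54.2. Cas9 replicate 4 of set B was set above its group in normalized counts of Iglv2 2.46. GCas9 replicate 1 of set B was set above its group in normalized counts of Igkv1-110 75.2.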

How the results depend on the processing

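Against WT, none of the 12 members that are not V segments, nor the V segment of smallest p, changed direction under any of the alternatives run. DESeq2 called more than limma: 116 genes and 13 members for Cas9 and 218 genes and 20 members for GCas9 over WT, 4 genes for GCas9 over Cas9 in set A, and 14 and 41 genes for Cas9 and GCas9 over GFP. EdgeR called 0 genes for Cas9 over WT, as did a pseudocount of 5. A fit of 2 groups only called 6 genes and 2 members (Ighg3 and Igkv10-96) for Cas9 over WT and 7 genes for GCas9 over GFP, and a minimum mean of 1 called 3 genes for the last. With each library left out in turn, gene calls ran from 0 to 7 for Cas9 and 0 to 2 for GCas9 over WT, 0 to 1 between them in set A, 0 to 2 for Cas9 and 0 to 9 for GCas9 over GFP, and no fit of this kind called a member.

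Same-numbered libraries of different groups deviated together in part, not throughout. Their correlations were -0.019 to 0.644 in set A, over 0.1 in 6 of 9 pairs. In set B they were -0.130 to 0.462, over 0.1 in 7 of 12. Differently numbered pairs ran from -0.597 to 0.236 in set A, over 0.1 in 4 of 18. In set B those ran from -0.384 to 0.317, over 0.1 in 6 of 36. Correlations over 0.1 were thus more frequent among same-numbered pairs, and the main fits did not use the replicate numbers. With a replicate block, limma called 2 genes and 1 member (Ighv2-9) in each comparison with WT and 5 genes for GCas9 over GFP.

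Some signs turned. EdgeR and DESeq2 gave log2 fold changes of 0.61 and 0.63 for Ighm, 0.52 and 0.54 for Igj and 0.40 and 0.42 for Cd79a (GCas9 minus Cas9, set A), 0.011 and 0.016 for Ighg2b (Cas9 minus GFP), 0.51 and 0.52 for Igha and 0.0091 and 0.036 for Ighg3 (GCas9 minus GFP), and 0.16 and 0.16 for Igkc, 0.14 and 0.15 for Igha and 2.94 and 2.94 for Ighg1 (GCas9 minus Cas9, set B). The cause was not tested.

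With each library left out in turn, log2 fold changes of both signs were seen. For GCas9 minus Cas9 in set A they ran, for Cd79a -1.46 to 0.57, Cd79b -0.67 to 0.84, Igha -2.02 to 1.06, Ighg1 -0.58 to 2.49, Ighg2c -1.39 to 1.03, Ighm -1.89 to 0.70, Igj -1.40 to 0.75, Igkc -1.28 to 0.94 and Mzb1 -0.46 to 1.80. For Cas9 minus GFP they ran, for Cd79a -0.052 to 1.03, Ighg2b -0.84 to 0.32, Ighg3 -0.25 to 1.06, Ighm -0.86 to 0.29, Igj -0.64 to 0.36, Igkc -0.73 to 0.19, Iglc2 -0.59 to 0.53 and Mzb1 -0.13 to 0.54. For GCas9 minus GFP they ran, for Ighg1 -0.13 to 3.00 and Ighg3 -1.10 to 0.34. For GCas9 minus Cas9 in set B they ran, for Ighg1 -2.23 to 0.91. V segments with at least 3 reads, as a group median, numbered 9 in WT and 37.5 in GCas9 of set B, where at least 1 read gave 28 and 58. A sum of 10 in place of 20 gave 163 members, and 50 gave 114. For single V segments with few reads, depth and shared sequence limit what can be told apart.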
